A study of Mus musculus with 13 samples.

Results

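Colon and ileum of vancomycin-treated and untreated mice were compared for 79 genes of 5 families of drug- and steroid-metabolising enzymes, out of 19505 genes with a named probe set. The members were taken by gene symbol: 10 UDP-glycosyltransferases (the Ugt2 glucuronosyltransferases and Ugt3), 20 glutathione S-transferases (Gsta, Gstk, Gstm, Gsto, Gstp and Gstt), 21 sulfotransferases (Sult), 15 carboxylesterases (Ces1, Ces2 and Ces3) and 13 aldo-keto reductases of the Akr1 group. The rule reads symbols alone, and each member had 1 probe set. The same symbols match 96 RefSeq genes, of which 17 were not analysed here, among them the genes of the Ugt1a locus, Ces2c and Gsta1.

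These enzymes make small molecules easier to excrete. Carboxylesterases cleave esters and amides, and aldo-keto reductases turn aldehydes and ketones, including steroids, into alcohols. Glucuronosyltransferases, sulfotransferases and glutathione S-transferases then attach glucuronic acid, sulfate or glutathione, and ABC transporters carry the conjugates out of the cell. In the gut they act on drugs, dietary compounds, bile acids and steroids. Gut bacteria can cleave glucuronides and sulfates again.

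All mice were FVB females bearing a syngeneic mammary carcinoma that expresses human HER2. Vancomycin, an antibiotic active mainly against Gram-positive bacteria, was given in the drinking water at 200 mg/L from 4 weeks of age until the end, and the other mice received no antibiotic. The endpoint was 9 weeks, of age or of treatment (the labels do not say which), at tumours of 150 mm3. The 13 arrays comprised colon without antibiotic (n = 4; replicates 1, 2, 3 and 5), colon with vancomycin (n = 3; replicates 11, 13 and 14), ileum without antibiotic (n = 3; replicates 1, 2 and 3) and ileum with vancomycin (n = 3; replicates 11, 13 and 14). The tissue was washed before freezing and not separated into layers as far as the labels say. In such bulk samples fewer cells of a type and less RNA per cell cannot be told apart. Whether each array stands for its own mouse is not stated, and p-values here therefore describe only array-to-array spread, which may be technical.

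Values are log2 expression levels after RMA, on which a difference of 1 is nominally a doubling. Levels of different probe sets were not compared with each other. The negative controls had a median of 8.07. Where a member read at or below it in several arrays of a group, its log2 difference is given without a fold, since the lower level may be background. Differences were tested in limma over 19572 named probe sets, and a member is said to pass where its Benjamini-Hochberg adjusted p is under 0.05. Errors after ± are standard errors of that fit unless SD is written. The number of arrays limits the precision.

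The tissue labels were borne out by marker genes. Small intestinal enterocyte markers (10 genes) averaged 13.72 to 14.96 per ileum array and 8.39 to 9.12 per colon array. Colonocyte markers (9 genes) averaged 10.12 to 11.60 and 14.37 to 15.16. Epithelial markers (10 genes) averaged 14.55 to 14.77 in the untreated colon and 15.07 to 15.17 in the untreated ileum, without overlap. They went both ways, with differences from -2.82 to 0.87. Of the 10, 1 passed higher and 2 lower in the colon (30.0%, against 20.5% of all named probe sets). Smooth muscle markers passed higher in the colon in 8 of 10 genes without antibiotic (median 1.25) and in 1 of 10 with vancomycin (0.50). T cell markers passed lower in the colon in 5 of 8 and 4 of 8. Several arrays stood apart. Pancreatic amylase (Amy2a5) was at 13.46 and 12.92 in colon replicates 1 and 11 and at 10.99 and 11.42 in ileum replicates 1 and 11, against 7.03 to 7.97 in the 9 other arrays. Replicate 11 of the vancomycin ileum had the highest B-cell marker mean (10.09, against 7.21 to 8.73 elsewhere) and, at 14.44, more smooth muscle marker signal than the other ileum arrays (12.78 to 13.48). Adipocyte markers averaged 10.13 to 11.53 in the ileum and 7.30 to 8.73 in the colon. The part of these other cells in the enzyme differences was not tested, beyond leaving arrays out.

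Sequences upstream of the transcription start are shown for the member that vancomycin changed in the ileum (Akr1c19) and for 4 members that differ strongly between colon and ileum in either direction. They are RefSeq sequences of GRCm38.p6 (the C57BL/6J reference, whereas these mice were FVB), 250 bases ending at the start, 5′ to 3′ on the gene's strand. Capitals mark every match, on either strand, to 5 motifs: the HNF1 half-site GTTAAT, the GATA motif AGATAA, the CDX2 motif TTTATG, the nuclear receptor half-site AGGTCA and the antioxidant response element core TGACNNNGC.
Akr1c19, chr13:4233490-4233739, plus strand: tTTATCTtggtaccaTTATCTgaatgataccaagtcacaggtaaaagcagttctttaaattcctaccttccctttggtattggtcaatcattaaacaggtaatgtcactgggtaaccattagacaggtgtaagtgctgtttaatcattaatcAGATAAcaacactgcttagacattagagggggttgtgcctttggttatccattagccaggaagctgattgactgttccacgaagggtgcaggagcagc
Sult1a1, chr7:126676419-126676668, minus strand: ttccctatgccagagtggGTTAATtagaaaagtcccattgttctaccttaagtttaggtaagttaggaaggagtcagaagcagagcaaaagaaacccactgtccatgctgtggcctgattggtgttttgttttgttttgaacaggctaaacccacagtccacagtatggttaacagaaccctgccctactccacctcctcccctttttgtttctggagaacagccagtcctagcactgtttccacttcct
Akr1b8, chr6:34353896-34354145, plus strand: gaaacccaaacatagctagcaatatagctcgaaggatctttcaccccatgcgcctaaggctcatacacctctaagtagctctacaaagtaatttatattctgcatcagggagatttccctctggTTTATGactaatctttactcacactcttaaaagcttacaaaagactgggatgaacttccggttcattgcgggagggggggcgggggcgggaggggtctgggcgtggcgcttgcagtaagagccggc
Ugt2a3, chr5:87337196-87337445, minus strand: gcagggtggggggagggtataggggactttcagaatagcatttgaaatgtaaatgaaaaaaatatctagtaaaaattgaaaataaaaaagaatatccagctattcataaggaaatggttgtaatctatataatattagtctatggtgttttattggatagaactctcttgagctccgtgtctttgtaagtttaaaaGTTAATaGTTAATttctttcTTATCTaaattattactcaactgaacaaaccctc
Ugt2b36, chr5:87092556-87092805, minus strand: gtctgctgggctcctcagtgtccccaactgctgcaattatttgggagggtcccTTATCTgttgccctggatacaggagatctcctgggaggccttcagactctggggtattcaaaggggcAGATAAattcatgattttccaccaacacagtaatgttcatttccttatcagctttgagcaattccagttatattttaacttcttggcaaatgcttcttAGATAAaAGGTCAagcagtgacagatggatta

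Among these windows, Akr1c19 held 3 GATA matches and Ugt2b36 held 3 GATA matches and 1 nuclear receptor half-site. Ugt2a3 held a GATA match and 2 HNF1 half-sites 1 base apart, Sult1a1 a single HNF1 half-site, and Akr1b8 a single CDX2 motif. No match to the antioxidant response element core lay in any of the 5. Of the 79 members, 68 had an entry, with 79 windows in all. A GATA match occurred in 22.8% of the members' windows and 9.99% of all 32851 windows, a CDX2 motif in 19.0% and 10.8%, an HNF1 half-site in 15.2% and 6.43%, an AGGTCA half-site in 16.5% and 14%, and the antioxidant core in 5.06% and 10.2%. Several members are copies of one another, so their windows are not independent. A match is a description of letters and not evidence of binding.

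The largest differences among these enzymes lay between the tissues. Without antibiotic, 30 of 79 members passed (38.0%), 18 higher and 12 lower in the colon, against 20.5% of all named probe sets (11% higher, 9.59% lower). Under vancomycin, in separate arrays, 26 passed (32.9%; 12 higher, 14 lower), against 15.1% of all (7.45% higher, 7.67% lower). Of these, 21 members passed in both comparisons, and all 21 in the same direction. Both comparisons draw on the same estimate of spread over all arrays, so their calls are not fully independent. In 36 members without antibiotic and 27 with vancomycin the colon and ileum arrays did not overlap, against 32.2% and 27.4% of all probe sets. A further 44 members passed in neither comparison, and 24 of those were among the 28 members below the filter on dim probe sets, which marks those with the lowest mean levels. The families differed in direction without antibiotic: the 5 glucuronosyltransferases and 5 of the 6 carboxylesterases that passed were lower in the colon, while all 7 mu-class glutathione S-transferases were higher.

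**Figure D1:**
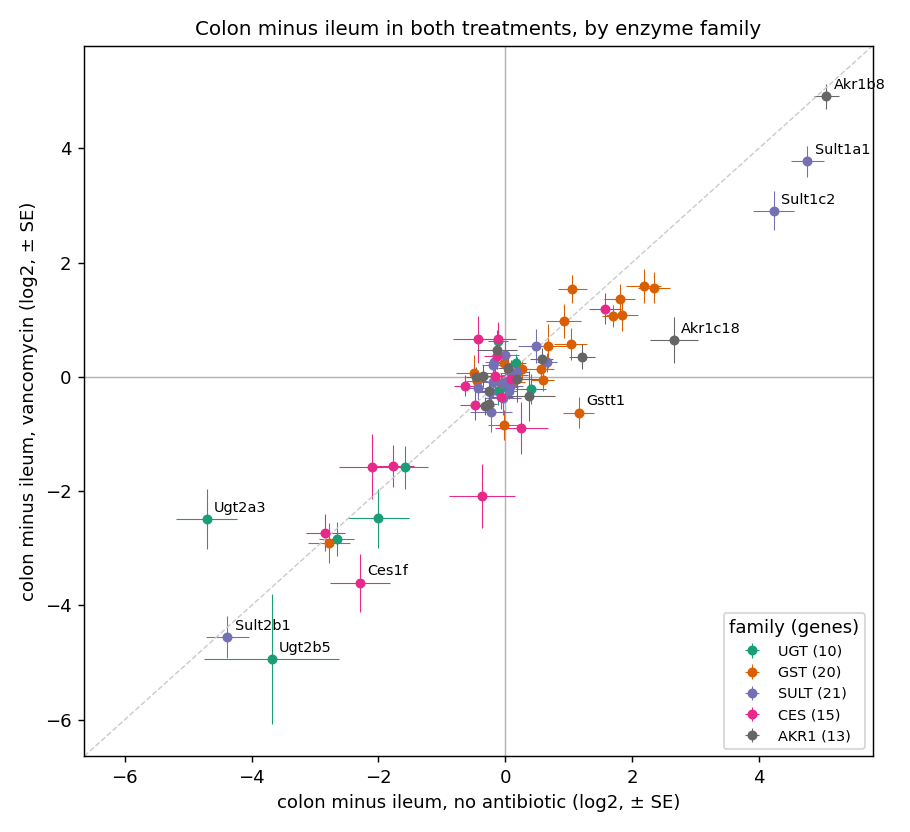
Colon minus ileum (log2, ± SE) without antibiotic on the horizontal axis and under vancomycin on the vertical axis for the 79 enzymes, coloured by family; the dashed line marks equal differences. Akr1b8, Sult1a1 and Sult1c2 lie at the upper right and Ugt2a3, Sult2b1 and Ugt2b5 at the lower left, while Gstt1 (1.16 without antibiotic, -0.63 under vancomycin) and Akr1c18 (2.66 and 0.64) lie below the line.

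UDP-glycosyltransferases were either lower in the colon or not distinguishable between the tissues without antibiotic. The median over the family was -0.85 (-1.79 for the 8 Ugt2 genes), against 0.04 over all named probe sets. Of 10, 5 passed (50.0%, against 20.5% of all), all 5 lower in the colon: Ugt2a3, Ugt2b5, Ugt2b36, Ugt2b37 and Ugt2b38. The same 5 passed under vancomycin. Ugt2a3, a glucuronosyltransferase of the gut and liver, read 10.01, 12.54 and 10.55 in the ileum without antibiotic and 8.56, 9.11 and 10.18 with vancomycin. In the colon it read 6.04, 6.48, 6.66 and 6.11 without antibiotic and 6.90, 6.52 and 6.97 with vancomycin. Every ileum array lay above every colon array, with a wide spread within the ileum, and all colon values lay below the negative control median. The difference was -4.71 ± 0.48 without antibiotic (adjusted p = 7.27e-06) and -2.49 ± 0.52 with vancomycin (adjusted p = 0.00411).

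Ugt2b36, a steroid and phenol glucuronosyltransferase of the Ugt2b group, read 10.86, 11.67 and 11.10 in the ileum without antibiotic and 10.94, 11.74 and 11.71 with vancomycin. Its colon values were 9.07, 7.96, 8.65 and 8.52 without antibiotic and 8.96, 8.39 and 8.51 with vancomycin. The tissues did not overlap, at -2.66 ± 0.28 (6.32-fold lower in the colon, adjusted p = 8.3e-06) and -2.84 ± 0.30 (adjusted p = 1.15e-05). Ugt2b38 was lower in the colon by a log2 difference of -2.01 ± 0.48 and -2.48 ± 0.52, and Ugt2b37 by -1.58 ± 0.35 and -1.59 ± 0.37. Ugt2b37 is a dim member. It read 4.52 to 5.66 in the colon and 5.63 to 7.28 in the ileum, below the negative control median in every array. With the replicate number as a block, the vancomycin call of Ugt2b37 was lost (adjusted p 0.00936 without the block and 0.0729 with it). Ugt2b34 and Ugt2b35, next to them in the genome, did not pass in either comparison: Ugt2b34 lay between 13.88 and 15.02 in all 13 arrays, and Ugt2b35 between 9.86 and 10.65. Ugt2b1 passed only under vancomycin, where it was higher in the colon by 0.62 ± 0.17 (adjusted p = 0.0226, and 0.137 with the replicate block). That call was also lost without treated colon replicate 11 or 14 or treated ileum replicate 11 (limma adjusted p from 0.0702 to 0.0836). Ugt2b1 is dim too, at 5.39 to 6.12 in the colon and 5.04 to 5.80 in the ileum, all below the negative control median. The pair Ugt3a1 and Ugt3a2, which use other sugars than glucuronic acid, did not pass.

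Glutathione S-transferases were mostly higher in the colon. Without antibiotic 10 of 20 passed higher and 1 lower (family median 0.63), and with vancomycin 7 passed higher and 2 lower (0.19). The family shares were 55.0% and 45.0%, against 20.5% and 15.1% of all named probe sets. The mu class led: all 7 Gstm genes passed without antibiotic, with a median difference of 1.80 and a range from 1.03 (Gstm4) to 2.34 (Gstm2). With vancomycin 6 of 7 passed (median 1.36), and for all 7 no colon array overlapped an ileum array in either treatment. The exception to the test was Gstm4 under vancomycin, at 0.57 ± 0.28 (adjusted p = 0.209). Gstm4 without antibiotic did not pass without ileum replicate 2 (0.91, adjusted p = 0.06), nor Gstm7 under vancomycin without colon replicate 13 (adjusted p = 0.0712) or ileum replicate 14 (0.0748).

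Gstm2 read 10.92 to 11.57 in the colon and 8.75 to 9.19 in the ileum without antibiotic, a difference of 2.34 ± 0.25 (5.07-fold, adjusted p = 1.09e-05). Gstm1, the mu-class enzyme abundant in liver, read 13.55 to 13.90 against 11.34 to 11.94 (2.18 ± 0.28, adjusted p = 5.63e-05). Gstm7 read 8.0 to 8.86 against 6.26 to 7.01 (1.84 ± 0.26, adjusted p = 0.000119). The Gstm genes form 1 run in the genome and resemble each other in sequence, and no source used here says how far the probe sets tell the copies apart, so the 7 values are not 7 independent measurements. The same holds for the pairs Gstp1 and Gstp2, Akr1c12 and Akr1c13, and for the Ugt2b, Sult2a and Ces runs.

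Of the alpha class, Gsta2 went the other way. It conjugates lipid peroxidation products and drugs, and read 12.00, 12.44 and 11.98 in the ileum without antibiotic and 11.75, 12.81 and 12.76 with vancomycin. In the colon it read 9.55, 9.52, 9.39 and 8.96 without antibiotic and 9.57, 10.31 and 8.71 with vancomycin. No colon array reached the ileum range, and the difference was -2.79 ± 0.33 (6.89-fold lower in the colon, adjusted p = 3e-05) and -2.91 ± 0.36 (adjusted p = 5.26e-05). Gsta4, which detoxifies the aldehyde 4-hydroxynonenal, was higher in the colon by 0.59 ± 0.18 without antibiotic (adjusted p = 0.0358), and read -0.06 ± 0.20 with vancomycin. The call was lost without colon replicate 1, 2 or 5 or ileum replicate 1 or 3 (0.40 to 0.61, adjusted p from 0.0655 to 0.202).

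The theta-class Gstt2 was higher in the colon in both treatments (0.92 ± 0.27 and 0.98 ± 0.29). Its calls were lost without any 1 of 6 and of 7 arrays respectively, with adjusted p from 0.0501 to 0.154 where lost. Gstt1 was higher in the colon without antibiotic only (1.16 ± 0.25, adjusted p = 0.00382). The kappa-class Gstk1, an enzyme of mitochondria and peroxisomes, was lower in the colon under vancomycin by a log2 difference of -0.84 ± 0.26 (adjusted p = 0.0464, and 0.209 with the replicate block), a call lost without any 1 of 10 arrays (adjusted p from 0.0541 to 0.196). The pi class, abundant in many epithelia, did not pass in either treatment: Gstp1 lay between 13.96 and 14.76 and Gstp2 between 14.25 and 15.11 over all 13 arrays.

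Sulfotransferases held 3 of the 5 largest tissue differences without antibiotic, in opposite directions, while most of the family did not pass. Without antibiotic 3 of 21 were higher and 1 lower in the colon (family median 0.00, and -0.21 without dim probe sets), and with vancomycin 2 and 1. These were 19.0% and 14.3% of the family, near the 20.5% and 15.1% of all named probe sets. Sult1a1, the phenol sulfotransferase, read 12.43, 11.76, 12.41 and 12.09 in the colon without antibiotic and 13.09, 12.11 and 11.74 with vancomycin. In the ileum it read 7.46, 7.50 and 7.27 without antibiotic and 8.65, 8.58 and 8.40 with vancomycin. The tissues were far apart, with the untreated ileum below the negative control median, at 4.76 ± 0.26 (adjusted p = 1.07e-08) and 3.77 ± 0.28 (adjusted p = 3.21e-07).

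Sult1c2, another sulfotransferase that acts on phenols, read 14.62, 14.42, 14.26 and 14.34 in the colon without antibiotic and 14.92, 14.07 and 13.13 with vancomycin. Its ileum values were 10.19, 9.94 and 10.40 without antibiotic and 11.31, 11.47 and 10.63 with vancomycin. The difference was 4.23 ± 0.32 (18.8-fold, adjusted p = 3.31e-07) and 2.90 ± 0.34 (7.48-fold, adjusted p = 3.93e-05). Sult1c1, beside it in the genome, lay between 4.95 and 5.6 in all arrays and did not pass.

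Sult2b1, which sulfates cholesterol and other 3-beta-hydroxysteroids, showed the reverse pattern. It read 14.36, 14.14 and 14.36 in the ileum without antibiotic and 13, 14.29 and 14.54 with vancomycin. In the colon it read 9.81, 10.40, 9.79 and 9.62 without antibiotic and 8.73, 9.82 and 9.62 with vancomycin. The difference was -4.38 ± 0.34 (20.8-fold lower in the colon, adjusted p = 3.76e-07) and -4.55 ± 0.36 (23.5-fold, adjusted p = 6.73e-07). Sult4a1, best known from brain, was higher in the colon without antibiotic by 0.66 ± 0.16 (adjusted p = 0.00683) within a dim range of 5.21 to 6.05.

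The other sulfotransferases did not pass between the tissues. Sult1b1 (thyroid hormone and phenol sulfation) and Sult1d1 (catecholamine sulfation) read high in both, from 13.52 to 14.49 and from 13.08 to 15.01. The oestrogen sulfotransferase Sult1e1 and the 8 measured Sult2a genes, bile acid and steroid sulfotransferases of liver, read between 4.47 and 7.86 with 0 passing in either comparison. Of all 19572 probe sets, 4020 and 2961 passed in these comparisons.

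Carboxylesterases tended to be lower in the colon. Without antibiotic 5 of 15 passed lower and 1 higher (family median -0.37), and with vancomycin 4 lower and 1 higher (-0.36). That was 40.0% and 33.3% of the family, against 20.5% and 15.1% of all named probe sets. Ces2e, a carboxylesterase of the intestinal Ces2 group, read 14.10, 13.87 and 14.01 in the ileum without antibiotic and 12.76, 13.96 and 14.26 with vancomycin. In the colon it read 11.57, 10.73, 11.19 and 11.14 without antibiotic and 10.69, 10.73 and 11.37 with vancomycin. All colon arrays lay below all ileum arrays, by -2.84 ± 0.30 (7.14-fold lower in the colon, adjusted p = 1.07e-05) and -2.73 ± 0.33 (adjusted p = 4.27e-05).

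Ces1f, an endoplasmic reticulum esterase that hydrolyses lipid esters, was lower in the colon by a log2 difference of -2.29 ± 0.48 without antibiotic (adjusted p = 0.00299) and -3.60 ± 0.51 with vancomycin (12.1-fold, adjusted p = 0.000193). Ces1c, the secreted esterase of mouse plasma, differed by -1.78 ± 0.34 and -1.56 ± 0.37. Ces1d, a triacylglycerol hydrolase, passed only with vancomycin (-2.08 ± 0.56, adjusted p = 0.0211), a call lost when colon replicate 13 or 14 or ileum replicate 11 or 14 was left out (adjusted p from 0.0546 to 0.0967). Ces2a, another intestinal Ces2 enzyme, passed without antibiotic (-2.10 ± 0.53, adjusted p = 0.0113; -1.91 and 0.0545 without ileum replicate 1) and read -1.57 ± 0.57 with vancomycin (adjusted p = 0.0838). With the replicate number as a block its vancomycin adjusted p was 0.00497.

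Ces2g went the other way. It read 11.18 to 11.93 in the colon and 9.64 to 10 in the ileum without antibiotic, a difference of 1.58 ± 0.26 (2.98-fold higher in the colon, adjusted p = 0.000464), and 1.19 ± 0.27 with vancomycin (adjusted p = 0.00805, and 0.0507 with only the arrays compared in the fit). Ces2a, Ces2e and Ces2g lie in 1 run of 8 neighbouring Ces2 and Ces3 genes. In that run 3 passed lower and 1 higher without antibiotic, against 9.59% and 11% of all named probe sets. Ces2b and Ces2f, between Ces2a and Ces2g, did not pass, and Ces3a and Ces3b read between 5.03 and 6.59. Ces2h, also lower (-0.64 ± 0.17), read 6.27 to 7.58 over all arrays, below the negative control median. Its call was lost without untreated ileum replicate 1 (limma adjusted p = 0.0885).

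Aldo-keto reductases that passed without antibiotic were all higher in the colon, 4 of 13 (30.8%, against 20.5% of all named probe sets). The family median was 0.05. Akr1b8, of the aldose reductase group and active on lipid-derived aldehydes, had the largest log2 difference between the tissues of all members without antibiotic. It read 13.18, 13.27, 12.77 and 12.98 in the colon without antibiotic and 12.14, 12.77 and 12.04 with vancomycin. In the ileum it read 8.20, 7.60 and 8.16 without antibiotic and 7.51, 7.47 and 7.25 with vancomycin. All treated ileum values lay below the negative control median. The tissues were separated by 5.06 ± 0.20 (adjusted p = 4.41e-10) and 4.91 ± 0.22 (adjusted p = 1.65e-09). Akr1b10, its neighbour, read -0.25 ± 0.17 and -0.26 ± 0.18 and did not pass.

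In the run of Akr1c genes and Akr1e1, 3 of 8 passed without antibiotic, against 20.5% of all named probe sets. Akr1c18, the 20-alpha-hydroxysteroid dehydrogenase that inactivates progesterone, read 6.63 to 8.69 in the colon and 4.73 to 4.90 in the ileum, a difference of 2.66 ± 0.38 (adjusted p = 0.000168). It is a dim member, with every ileum value and all but 1 colon value below the negative control median. Akr1c19, a dehydrogenase of the same group, differed by 1.21 ± 0.21 (2.32-fold, adjusted p = 0.000698), and Akr1c14, a 3-alpha-hydroxysteroid dehydrogenase, by 0.57 ± 0.18 (adjusted p = 0.0358, a call lost without any 1 of 5 arrays). With vancomycin 0 of the 7 Akr1c genes in the run passed. Akr1a1, the aldehyde reductase of ascorbate synthesis, and Akr1e1, which reduces anhydrofructose, then passed lower in the colon (-0.51 ± 0.15 and -0.47 ± 0.14). Leaving out any 1 of 5 arrays (Akr1a1) or of 4 (Akr1e1) ended those calls, with adjusted p from 0.0608 to 0.132, as did the replicate block (0.147 and 0.169).

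**Figure D2:**
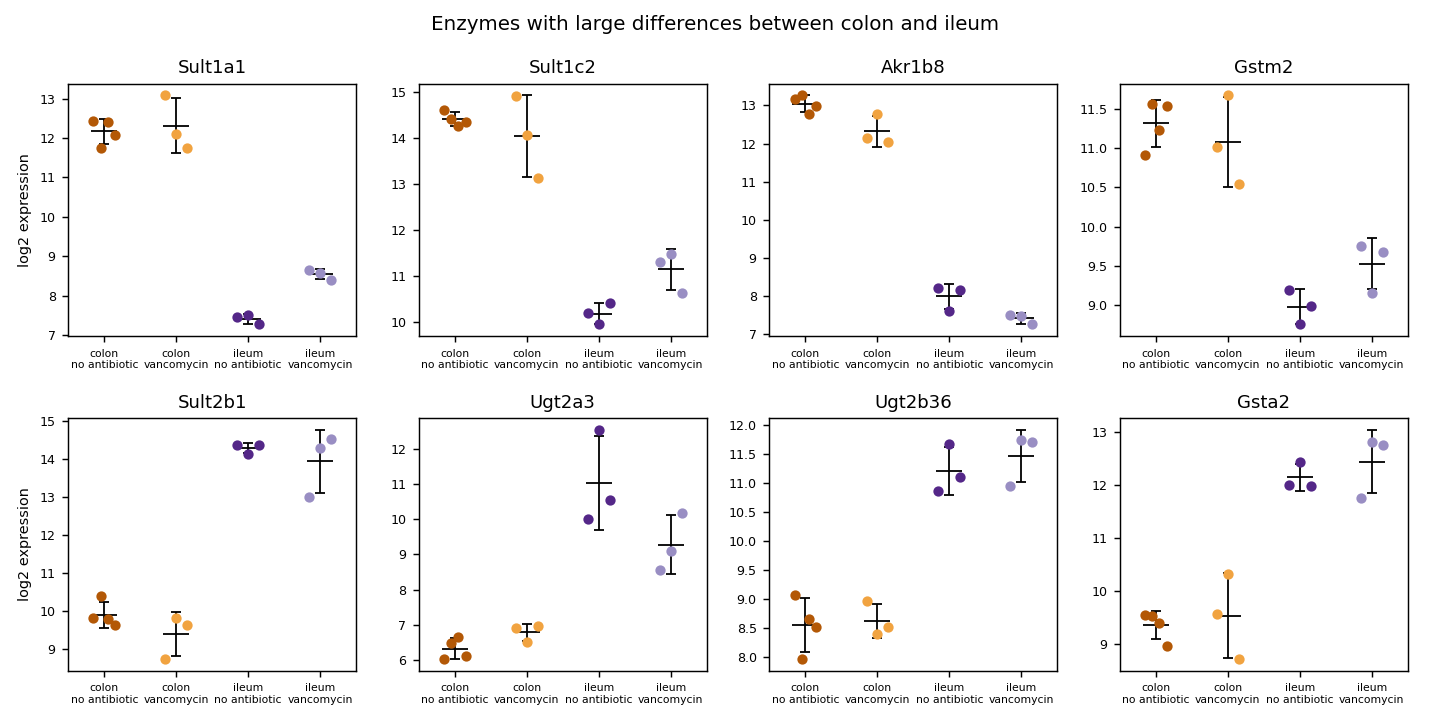
Log2 expression of 8 enzymes in each array (points) by tissue and treatment, with group means (long bars) and SD (error bars); each panel has its own vertical scale, which does not start at 0. Sult1a1, Sult1c2, Akr1b8 and Gstm2 are higher in all 7 colon arrays than in all 6 ileum arrays, and Sult2b1, Ugt2a3, Ugt2b36 and Gsta2 are lower.

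Of the 79 members, 66 lie in 13 runs of neighbouring members, with at most 2 other protein-coding genes between them. Runs differed in how many members passed and in which direction. Without antibiotic 20.5% of all named probe sets passed, 11% higher and 9.59% lower in the colon. The Gstm run had 7 of 7 members passing higher then. The run from Ugt2b34 to Sult1e1, of Ugt2 and Sult1 genes, had 5 of 11 lower and 0 higher. All 5 adjoined each other from Ugt2b36 to Ugt2b38, with members on both sides that did not pass. The run of 8 Sult2a genes had 0 passing. In the Ces2 and Ces3 run, Ces2g (1.58) lay in the same run as Ces2e (-2.84).

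Genes around these enzymes also differed between the tissues. Export carriers went both ways. The apical pumps Abcc2 and Abcg2, which move conjugates into the lumen, were lower in the colon without antibiotic (-6.73 ± 0.35 and -2.46 ± 0.24), as were Abcb1a (-0.60) and Abcb1b (-0.66). Abcc1, Abcc3 and Abcc4, of which the first and second sit in the basolateral membrane, were higher (1.03, 0.87 and 1.13), so 7 of 8 export genes passed (87.5%, against 20.5% of all named probe sets). The same 7 passed in the same directions under vancomycin, against 15.1% of all. Abcc2 then differed by -6.47 ± 0.38 and Abcc3 by 1.93 ± 0.20.

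Of 13 measured xenobiotic sensors and their partners, 5 were lower and 1 higher in the colon without antibiotic (46.2%, against 20.5% of all). The bile acid receptor Nr1h4 differed by -2.13 ± 0.20, the pregnane X receptor Nr1i2 by -1.38 ± 0.22, Ppara by -1.25, Hnf4a by -1.04 and Rxra by -1.01, whereas Pparg was higher by 2.17 ± 0.18. With vancomycin Nr1h4 (-1.19), Ppara (-1.57) and Pparg (2.05) passed (23.1%, against 15.1%). Of 9 enzymes often induced by NRF2, 4 were lower in the colon without antibiotic and 0 higher (44.4%, against 20.5%): Srxn1 (-3.31 ± 0.42), Gsr (-1.53), Gclc (-1.03) and Pgd (-0.70). Nfe2l2, which encodes NRF2, read -0.26 ± 0.12 (adjusted p = 0.151). The mu-class transferases were higher in the colon. Any part of NRF2 in these differences was not tested.

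For UDP-glucuronic acid supply and glucuronide hydrolysis 1 of 5 genes passed without antibiotic (20.0%, near the 20.5% of all), the transporter Slc35b1 (-1.26 ± 0.20). For the cofactor of sulfation and sulfate transport it was 1 of 6 (16.7%), the phosphatase Bpnt1 that clears the by-product of sulfation (-1.48 ± 0.22). Under vancomycin Slc35b1 and Bpnt1 passed again, with Slc26a2 (1.47) and Slc35b3 (0.63) higher, so 3 of 6 sulfation genes passed then (50.0%, against 15.1%). Of 8 glutathione genes without antibiotic, Anpep (-8.39 ± 0.63), Dpep1 (-1.53), Hagh (-1.16) and Ggct (-0.93) were lower and Oplah (0.70) higher (62.5%, against 20.5%). Anpep was also among the enterocyte markers that bore out the tissue labels. Among 20 other conjugating and hydrolysing enzymes 5 passed without antibiotic (25.0%, against 20.5% of all). Tpmt (1.94 ± 0.22) and Ephx1 (0.94) were higher and Ephx2 (-1.79), Mgst1 (-1.38) and Bche (-1.25) lower. Among 12 other carbonyl reductases 6 passed (50.0%, against 20.5%). Adh1 (3.41 ± 0.30), Dcxr (0.89) and Cbr3 (0.62) were higher and Aldh1a1 (-1.64), Ptgr1 (-1.19) and Dhrs4 (-0.44) lower.

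Some enzymes varied more among colon arrays than among ileum arrays. Ugt2b5, a steroid glucuronosyltransferase, had the widest colon range of the members: it read 10.96, 5.72, 8.05 and 8.83 in the colon without antibiotic and 9.76, 4.84 and 6.98 with vancomycin. In the ileum it read 11.90, 12.17 and 12.14 without antibiotic and 11.70, 12.38 and 12.32 with vancomycin. Its colon range was 6.12 and its ileum range 0.68. All colon arrays still lay below all ileum arrays (-3.68 ± 1.07, adjusted p = 0.024; -4.94 ± 1.14 with vancomycin, adjusted p = 0.00814). The call without antibiotic was lost under an intensity trend with a robust prior (adjusted p = 0.0528). It was also lost without colon replicate 2 (-2.79, 0.0601) or 3 (-3.57, 0.0547), or without ileum replicate 1, 2 or 3 (adjusted p 0.0626, 0.0715 and 0.0766).

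Next by range over the 7 colon arrays came Akr1c18 (3.39, and 0.76 over the 6 ileum arrays), Ces1f (3.18 and 0.73), Ces2a (3.07 and 2.92), Ces1d (2.84 and 2.07), Ugt2b38 (2.57 and 0.78) and Ces1g (2.36 and 1.33). For Ces2a and Ces1d the ileum was thus nearly as wide, and Ugt2a3 was wider in the ileum (3.98, and 0.93 in the colon). The members' median colon range was 1.02, against 0.70 over all named probe sets. Over the 7 colon arrays, as a description without a test, the members most like Ugt2b5 by Pearson correlation were Ugt2b38 (0.937), Ugt2b36 (0.858), Ugt2b37 (0.842), Ces1d (0.839) and Ces1g (0.815). Those most opposed were Gsta3 (-0.908), Gstp3 (-0.877), Gstm7 (-0.855) and Ces1c (-0.85). No source used here says how far the Ugt2b probe sets tell their copies apart. The colon arrays with the highest Ugt2b5, replicates 1 and 11, were those with pancreatic acinar markers (means of 9.53 and 9.28, against 7.41 to 7.72 in the other 5). Ugt2b5 correlated at 0.739 with that marker mean and at 0.766 with the smooth muscle mean. The part of neighbouring tissue in this spread was not tested. With the array of highest pancreatic markers left out of each group, a choice made after seeing the data, 28 members passed without antibiotic (35.4%) and 31 with vancomycin (39.2%), against 3587 and 3292 of the 19572 probe sets in the same fit.

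**Figure D3:**
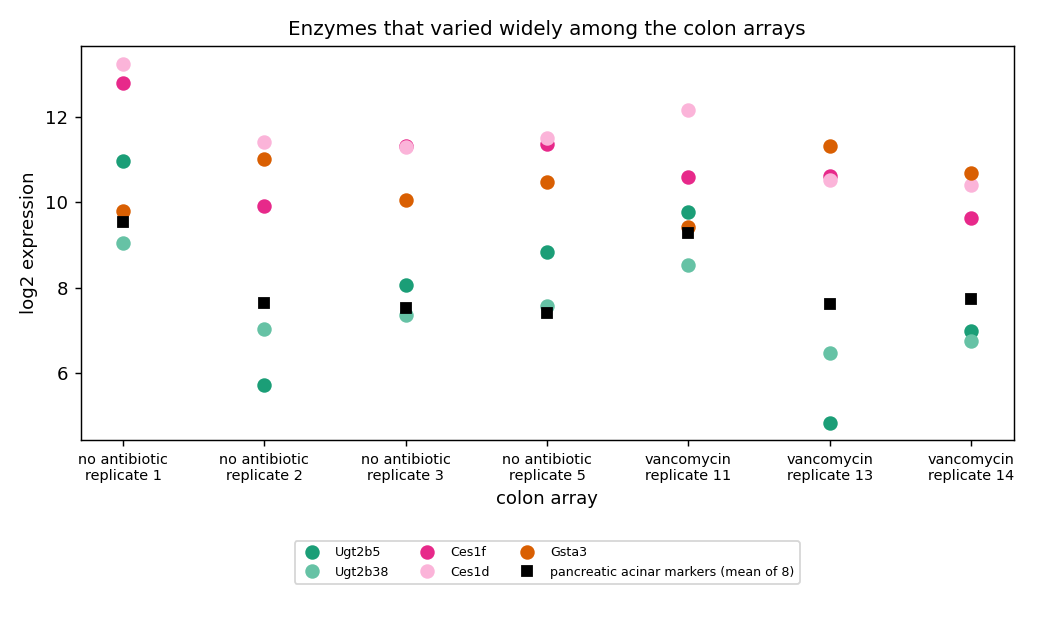
Log2 expression of 5 enzymes and the mean of 8 pancreatic acinar markers in each of the 7 colon arrays. Ugt2b5, Ugt2b38 and Ces1d are highest in replicates 1 and 11, which also have the highest pancreatic marker means (9.53 and 9.28), while Gsta3 is lowest there.

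In the ileum, vancomycin changed 1 of 79 members (1.27%), against 0.536% of all named probe sets in either direction and 0.0511% higher. That member was Akr1c19, a dehydrogenase of the hydroxysteroid dehydrogenase group, whose upstream window holds 3 GATA matches. It read 12.73, 12.93 and 12.68 without antibiotic and 13.94, 14.23 and 14.02 with vancomycin. In the colon it read 14.46, 14.20, 13.55 and 13.76 without antibiotic and 14.37, 14.15 and 14.73 with vancomycin. All 3 treated ileum arrays lay above the untreated ones and within the range of the colon. The rise was 1.28 ± 0.22 (2.43-fold, limma adjusted p = 0.0177). Without ileum replicate 1, 3 or 13 the estimate stayed between 1.20 and 1.26 and the adjusted p was 0.0923, 0.114 and 0.0877. Without the array of highest pancreatic markers in each group it was 1.32 (adjusted p = 0.0516).

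With Akr1c19 included, 14 members had an unadjusted p under 0.05 in the ileum, against 10.1% of all probe sets. In 21 the treated and untreated ileum arrays did not overlap, 14 higher and 7 lower (26.6%, against 16.9% of all). Both colon-type sulfotransferases were among them. Sult1a1 read 1.13 ± 0.28 higher with vancomycin (adjusted p = 0.11; 0.0161 without colon replicate 11), and Sult1c2 0.96 ± 0.34 (adjusted p = 0.348). Gsta4 (0.63 ± 0.20, adjusted p = 0.261), Gstt1 (0.73 ± 0.27, 0.358) and Akr1e1 (0.34 ± 0.14, 0.419) also had higher means without passing.

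On the lower side, Ces2a read 14.25 to 14.84 in untreated and 11.92 to 13.85 in treated ileum (-1.58 ± 0.57, adjusted p = 0.353), and Gstm3 read 9.92 to 10.96 and 9.39 to 9.74 (-0.88 ± 0.25, adjusted p = 0.182). Ugt2a3 had the lowest estimate, -1.75 ± 0.52 (adjusted p = 0.219), with overlapping arrays. Akr1b8 (-0.58 ± 0.22, 0.384) and Akr1b10 (-0.52 ± 0.18, 0.333) were lower in every treated array without passing. Means of all 7 Ces1 genes were higher and of 5 of 6 Ces2 genes lower, with 0 passing and differences from 0.03 to 0.88 and from -1.58 to 0.31. Family medians lay between 0.02 (UGT) and 0.24 (SULT), against 0.02 over all named probe sets. Without the dim probe sets the SULT median was -0.14.

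The number of ileum calls depended on array weights. When limma estimated them, treated ileum replicate 11 had the smallest (0.302) and replicate 13 the largest (3.79) of the 13 arrays. With those weights 11 members passed, 9 higher and 2 lower (13.9%, against 5.17% of all named probe sets under the same weights), among them Akr1c19, Sult1a1 (1.15, adjusted p = 0.00692), Sult1c2 (1.18, 0.0167), Gsta4 (0.66, 0.0324), Akr1e1 (0.43, 0.0347), Ugt2a3 (-1.92, 0.0275) and Akr1b10 (-0.55, 0.0402). With replicate 11 simply left out, 1 passed, Akr1c19 (1.34, adjusted p = 0.018). Of the smooth muscle markers, all 10 had a higher mean in the treated ileum (median 0.78) and 0 passed. All 10 enterocyte markers had a lower mean (median -0.27) and 0 passed.

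**Figure D4:**
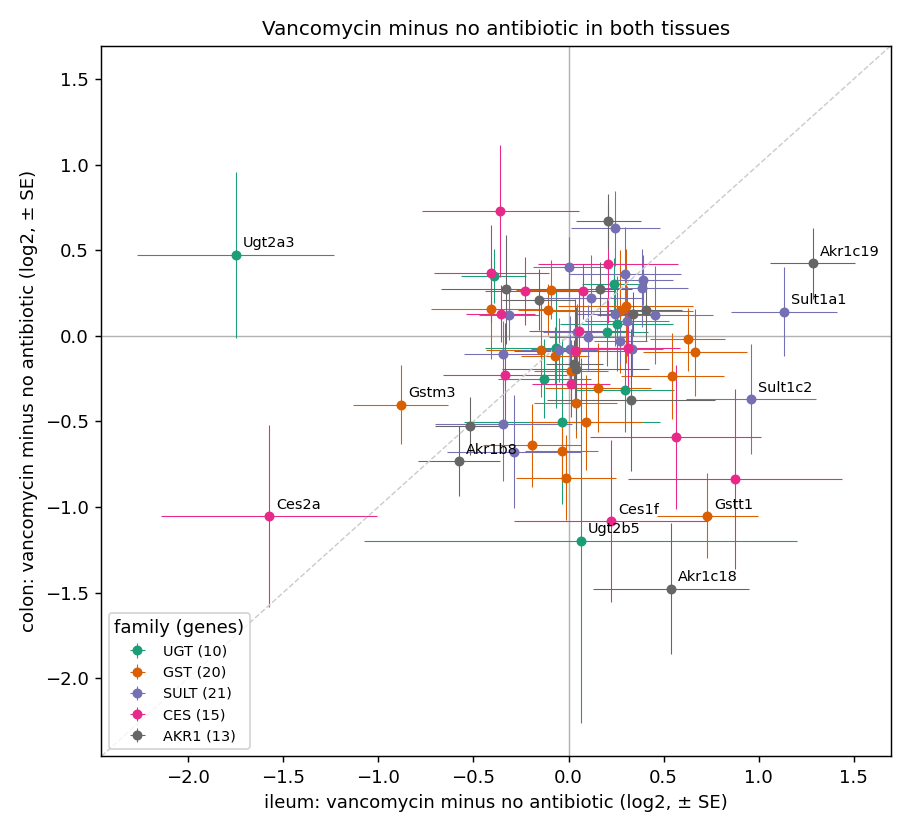
Vancomycin minus no antibiotic (log2, ± SE) in the ileum on the horizontal axis and in the colon on the vertical axis for the 79 enzymes, coloured by family; the dashed line marks equal changes. Akr1c19 (1.28 in the ileum) is the single member past the threshold, and Gstt1 and Akr1c18 lie at lower right, higher in the treated ileum and lower in the treated colon without passing.

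In the colon, 0 of 79 members passed in limma, against 2 of 19572 probe sets (0.0102%). At an unadjusted p under 0.05 there were 13 members, against 15.9% of all probe sets. In 10 members the arrays did not overlap (12.7%, against 12.3% of all), 4 higher and 6 lower. Members with the smallest p were Gstt1 (-1.05 ± 0.25, adjusted p = 0.117), which conjugates small halogenated compounds, the bile acid pathway 5-beta-reductase Akr1d1 (0.67 ± 0.16, 0.119), Akr1c18 (-1.48 ± 0.38, 0.133) and Gstm5 (-0.68 ± 0.18, 0.142). Without colon replicate 3 of the untreated group, Gstt1 (-1.25, adjusted p = 0.0423) and Akr1d1 (0.78, 0.0423) passed. Akr1d1 read 4.0 to 4.62 untreated and 4.90 to 5.06 treated, near the bottom of the scale.

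Glutathione S-transferases had lower means in treated colon for 15 of 20 genes (median -0.16, against 0.02 over all named probe sets), including all 7 Gstm (median -0.40, range -0.68 to -0.10), without any passing. Gstk1 read 13.78 to 14.37 untreated and 12.72 to 13.58 treated (-0.83 ± 0.26, adjusted p = 0.17). Akr1b8 differed by -0.73 ± 0.20 (adjusted p = 0.156), with overlapping arrays. Among carboxylesterases Ces1f (-1.08 ± 0.48, 0.29) and Ces2a (-1.05 ± 0.53, 0.347) had lower means and Ces2b a higher one (0.73 ± 0.39, 0.366). Among sulfotransferases the largest estimates were -0.68 ± 0.33 for Sult1d1 and 0.63 ± 0.22 for Sult2a7, and among glucuronosyltransferases -1.20 ± 1.07 for Ugt2b5. Goblet cell markers had lower means in treated colon for 10 of 10 genes (array means of 14.10 to 15.21 against 15.45 to 15.84) with 0 passing. The part of cell composition in the enzyme estimates was not tested.

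The vancomycin effects in colon and ileum were compared directly by the difference of the 2 changes, colon minus ileum. In limma 0 of 79 members passed, against 0.189% of all named probe sets (0.0307% in the lower direction), and 11 had an unadjusted p under 0.05 (8.01% of all). Gstt1 came nearest. It read 10.24 to 11.11 in untreated and 9.35 to 10.21 in treated colon, and 9.34 to 10.05 in untreated and 10.21 to 10.64 in treated ileum. The arrays did not overlap in either tissue, and the colon mean was lower while the ileum mean was higher. The difference of changes was -1.78 ± 0.36 (adjusted p = 0.0926; -1.98 and 0.0353 without untreated colon replicate 3).

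Akr1c18, a dim member with all ileum and all treated colon values below the negative control median, had the same arrangement. It read 6.63 to 8.69 and 5.30 to 6.56 in untreated and treated colon, and 4.73 to 4.90 and 5.11 to 5.49 in untreated and treated ileum, with a difference of changes of -2.01 ± 0.56 (adjusted p = 0.282). For Akr1c19 the difference was -0.86 ± 0.30 (adjusted p = 0.452), so a rise in the ileum alone was not shown. Sult1a1 (-0.99 ± 0.38, 0.502), Sult1c2 (-1.33 ± 0.47, 0.452) and Ugt2a3 (2.22 ± 0.71, 0.375) did not pass either.

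**Figure D5:**
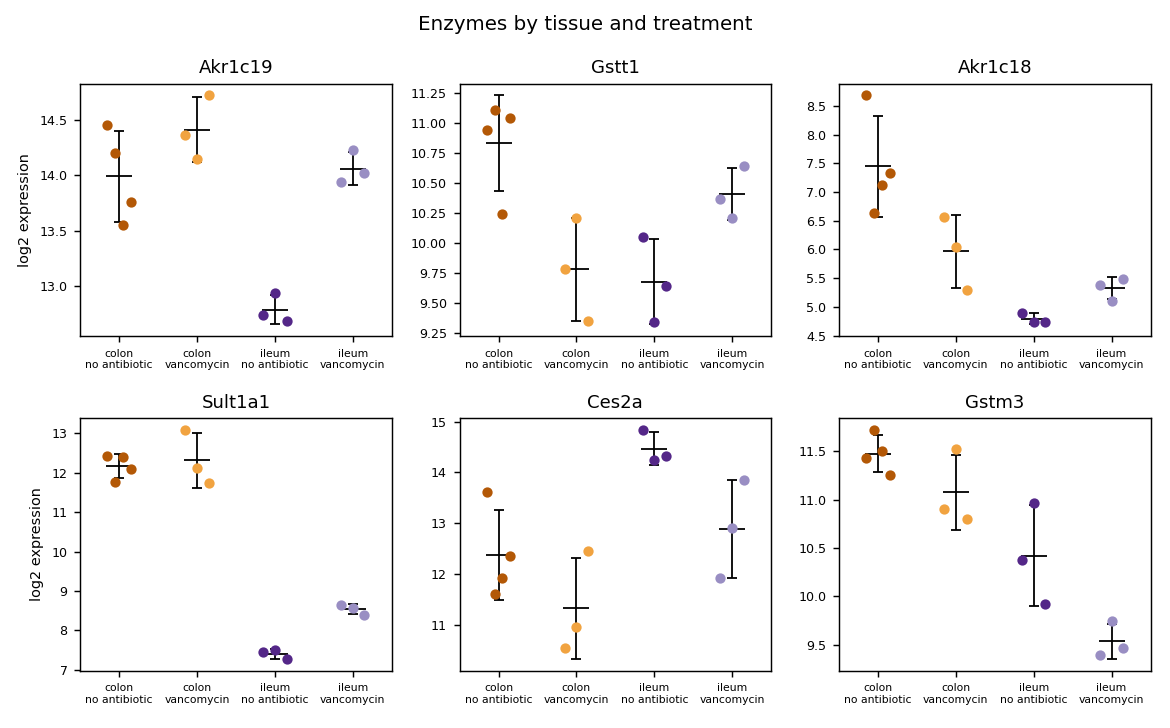
Log2 expression of 6 enzymes in each array (points) by tissue and treatment, with group means (long bars) and SD (error bars); each panel has its own vertical scale, which does not start at 0. Treated ileum arrays of Akr1c19 lie between 13.94 and 14.23 and untreated ones between 12.68 and 12.93, while Gstt1 is lower in treated colon and higher in treated ileum.

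Of the genes around the enzymes, 1 passed with vancomycin. In the ileum 1 of 81 measured regulators, cofactor, export and other enzyme genes passed (1.23%, against 0.536% of all), butyrylcholinesterase (Bche, an ester hydrolase; 1.49 ± 0.29, adjusted p = 0.0367). The smallest p among export genes was that of Abcc3 (-0.77 ± 0.20, adjusted p = 0.161), then Abcc4 (0.46, 0.506), and among sensors that of Hnf4a (-0.69 ± 0.21, 0.221), then Keap1 (-0.38, 0.394). The remaining lists led with Gsr (-0.84, 0.304) and Slc7a11 (0.44, 0.479) for NRF2 targets, Oplah (0.32, 0.502) and Ggct (-0.31, 0.612) for glutathione, and Dhrs4 (0.31, 0.465) and Adh1 (0.59, 0.563) for carbonyl reductases. For UDP-glucuronic acid supply and glucuronide hydrolysis they were Slc35b1 (-0.45, 0.508) and Gusb (-0.26, 0.729), and for sulfate supply Slc35b3 (-0.36, 0.519) and Slc26a2 (-0.54, 0.604).

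In the colon 0 of these genes passed, where 0.0102% of all did, and 0 passed for the difference between tissues. The estimates with the smallest p in the colon were those of Hagh (0.63 ± 0.18, adjusted p = 0.157) and Oplah (0.40, 0.202) for glutathione, and Nr1h4 (0.61 ± 0.20, 0.193) and Vdr (0.33, 0.237) among the sensors. Mgst2 (-0.47, 0.234) and Mgst1 (-0.57, 0.289) led the other conjugating enzymes, Dhrs4 (0.31, 0.261) and Akr7a5 (-0.60, 0.312) the carbonyl reductases, and Bpnt1 (-0.51, 0.278) and Slc26a2 (0.47, 0.478) the sulfate genes. Pgd (-0.46, 0.291) and Gsr (0.41, 0.456) led the NRF2 targets, and Abcb1b (-0.33, 0.301) and Abcc5 (0.26, 0.372) the export genes. Gusb (-0.22, 0.645) and Ugp2 (-0.08, 0.839) led the list of UDP-glucuronic acid supply and glucuronide hydrolysis.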

How the data were processed

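RNA from colon and ileum was measured on 13 1-colour Affymetrix arrays. The authors deposited log2 expression values. The submitters' processing notes name RMA and, at version 1.4.1.46, Affymetrix Expression Console, without the role of each. The genome build and the way probes tell gene copies apart are not given in the sources used here. Values ran from 3.01 to 18.25, with medians over named probe sets of 7.92 to 8.12 per array. The negative controls had a median of 8.07, so no gene was called detected or absent.

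The platform annotation named 19572 of 28846 probe sets, for 19505 genes. All 79 members matched RefSeq (GRCm38.p6) by Entrez identifier. All arrays were fitted together by group means in limma 3.58.1 (R 4.3.3; 9 residual degrees of freedom), Benjamini-Hochberg adjustment ran over all named probe sets, and the steps were tested on simulated data. Members, gene lists and rules were chosen with earlier results of these data known. Members were named where they passed under vancomycin, where they had 1 of the 2 smallest p per family and direction under vancomycin, or where they had 1 of the 3 largest non-overlapping tissue differences per family and direction. Up to 10 were given in every array, and others named for a range, a flag or a family pattern were chosen after their values were seen.

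Colon and ileum titles share numbers. Deviations from the group means correlated between same-numbered arrays by 0.236, 0.176 and 0.107 for replicates 11, 13 and 14, and by 0.0754, 0.0302 and -0.0162 for 1, 2 and 3. Numbers may therefore pair the vancomycin arrays. The main fit used no pairing, and the replicate number entered only as an alternative. With the replicate block 22 members passed between colon and ileum under vancomycin, instead of 26.

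Alternatives were the arrays compared alone, array weights, median centring, renewed quantile normalization, leaving out probe sets with the lowest mean levels (28 members fall below that filter), an intensity trend with a robust prior, 1 probe set per gene, the replicate block and each array left out.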

Additional observations from a re-analysis of the deposited data

Results flagged for a closer look

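Of 79 groups of 4 arrays tested (the untreated colon of each member), 5 held 1 array far from the other 3, by a gap above Dixon's 95% critical value. Chance gives about 1 in 20 such groups. Ces1d read 13.24 in replicate 1 and 11.30 to 11.51 in the others. Ces2g read 11.93 in replicate 2 (others 11.18 to 11.29), Sult4a1 read 5.65 in replicate 2 (others 6.02 to 6.05), Sult1e1 read 5.27 in replicate 1 (others 5.38 to 5.40) and Sult2a5 read 6.67 in replicate 3 (others 5.56 to 5.74).

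Gstt1 and Akr1c18 were lower in every treated colon array than in any untreated one and higher in every treated ileum array than in any untreated one. The difference between the tissues in the vancomycin effect was -1.78 for Gstt1 (limma adjusted p = 0.0926) and -2.01 for Akr1c18 (adjusted p = 0.282), so neither passed. For Akr1c18 all ileum and all treated colon values lay below the negative control median.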

How the results depend on the processing

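Of the members that passed between colon and ileum, 23 of 30 without antibiotic and 16 of 26 with vancomycin passed under every alternative run, and 0 named results reversed. The counts ran from 24 to 33 and from 19 to 31 over all alternatives. The background moved as well, from 20.5% and 15.1% of all probe sets in the main fit. With array weights 33 and 29 members passed (41.8% and 36.7%), against 27.7% and 25.1% of all probe sets. Leaving out the array of highest pancreatic markers in each group gave 28 and 31 members, against 3587 and 3292 of the 19572 probe sets. No such background is given for the other alternatives. In the ileum the 1 member became 11 with array weights (13.9%, against 5.17% of all probe sets) and 0 without the array of highest pancreatic markers in each group (chosen after seeing the data), and 0 to 2 with 1 array left out: 0 without untreated replicate 1 or 3 or treated replicate 13, and 2 without colon replicate 11 of the vancomycin group. In the colon the 0 members became 0 to 2 with 1 array left out (2 without untreated replicate 3). For the difference between tissues 0 became 1 with array weights and 0 to 1 with 1 array left out (1 without untreated colon replicate 3). The cause was not tested. With the replicate block, 1, 0, 0, 29 and 22 members passed in the ileum, in the colon, in their difference, and between the tissues without antibiotic and with vancomycin. In the ileum, in the colon and for their difference, the block entered as a correlation (0.0975 over all arrays). Between the tissues the number was instead a fixed factor, fitted on only the same-numbered arrays of a single treatment. That left out untreated colon replicate 5 and gave fewer residual degrees of freedom than the main fit. This smaller fit ended 5 calls between the tissues under vancomycin (Akr1a1, Akr1e1, Gstk1, Ugt2b1 and Ugt2b37) and added that of Ces2a (adjusted p = 0.00497). Without antibiotic it ended 2 (Akr1c14 and Ces2h) and added 1 (Gsto2). It changed no other call of a member. In the untreated arrays the shared numbers are not known to pair samples. Without dim probe sets, the UDP-glycosyltransferase median between the tissues moved to -2.01 and -2.48. The sulfotransferase median then moved to -0.14 in the ileum, -0.24 in the colon, -0.28 for their difference and -0.21 between tissues without antibiotic. Without treated ileum replicate 13 it was 0.07 between tissues under vancomycin. Low signal limits what can be read for the 28 members below that filter. A fit of only the arrays compared was not run for the difference, which needs all groups.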
